A study of Mus musculus with 16 samples.

Results

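High-fat diet (HFD) livers were measured in duplicate: 8 of the 16 arrays of the series held the RNA of 4 HFD mice, once on a first chip (chip A) and once on a second (chip B). These 8 arrays were chosen by their labels, which number the mice HFD1 to HFD4 on both chips, and the columns of the signal table carry 1 animal number for each pair. All mice of the series were female C57BL/6J, and total RNA came from liver. The 4 HFD mice had received no nicotinamide mononucleotide (NMN). The other 8 arrays held 4 mice on regular chow, on chip A, and 4 HFD mice that had received NMN by intraperitoneal injection for a week, on chip B. The sources used here do not give ages, the composition of the diets, the hour of collection or whether mice had been fasted. The labels do not say whether the repeat arrays started from the same RNA extract or the same labelling reaction. A difference among the mice can therefore lie in the animal, in the piece of liver taken, in the hour of collection or in the extract, and these cannot be told apart. The animal numbers of mice 2, 3 and 4 began alike and that of mouse 1 differently, and what the first part of the number stands for is not stated.

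The liver takes up dietary fat and sugar, stores fat as droplets, makes cholesterol and fatty acids under the control of the SREBP transcription factors, and burns fatty acids under the control of PPAR alpha. Many of these genes move with feeding, with the circadian clock and with inflammation, in which hepatocytes secrete acute phase proteins while Kupffer cells, the macrophages of the liver, and incoming neutrophils express cytokines and granule proteins. Genetically alike mice on one diet can stand at different points of each of these programmes. Repeat arrays of the same livers separate that spread from the error of the array.

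The HFD arrays detected between 9473 and 10569 of 25697 probes at a detection p under 0.01. Their mean signal, which the authors' scaling made equal, was 4.83 to 6.13 times the median signal of the undetected probes of the array. Detection on at least 4 of the 16 arrays was met by 10550 probes, and taking the brightest probe of each named gene left 6559 genes. At the edge of this filter, 229 probes were detected on 3 arrays and left out, and 209 on 4 and kept. Of 15 hepatocyte markers 12 were measured and 6 differed among the mice (50%, against 54.5% of all genes), none of these with a range over 1 on the log2 scale. These counts describe spread and do not check the tissue label. Values below are neqc-normalized log2 signals, so a difference of 1 is a 2-fold difference, and the number of arrays limits their precision.

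Arrays with the same number deviated together. For each probe the mean of the 4 HFD arrays of a chip was subtracted, and the deviations on chip A were correlated across probes with those on chip B. Arrays of the same mouse gave r between 0.734 and 0.883, with a mean of 0.838, and arrays of different mice gave r between -0.615 and 0.174. Subtracting the chip mean makes the 4 deviations of a probe balance, which by itself pulls r between different mice down. Of the 24 ways to pair the arrays, pairing by number gave the highest mean and the next best reached 0.519. The one-sided exact permutation p was 0.0417, the smallest that 24 pairings can give. Probes are not independent replicates, so the correlations describe the arrays. No HFD array was a copy of another.

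**Figure D1:**
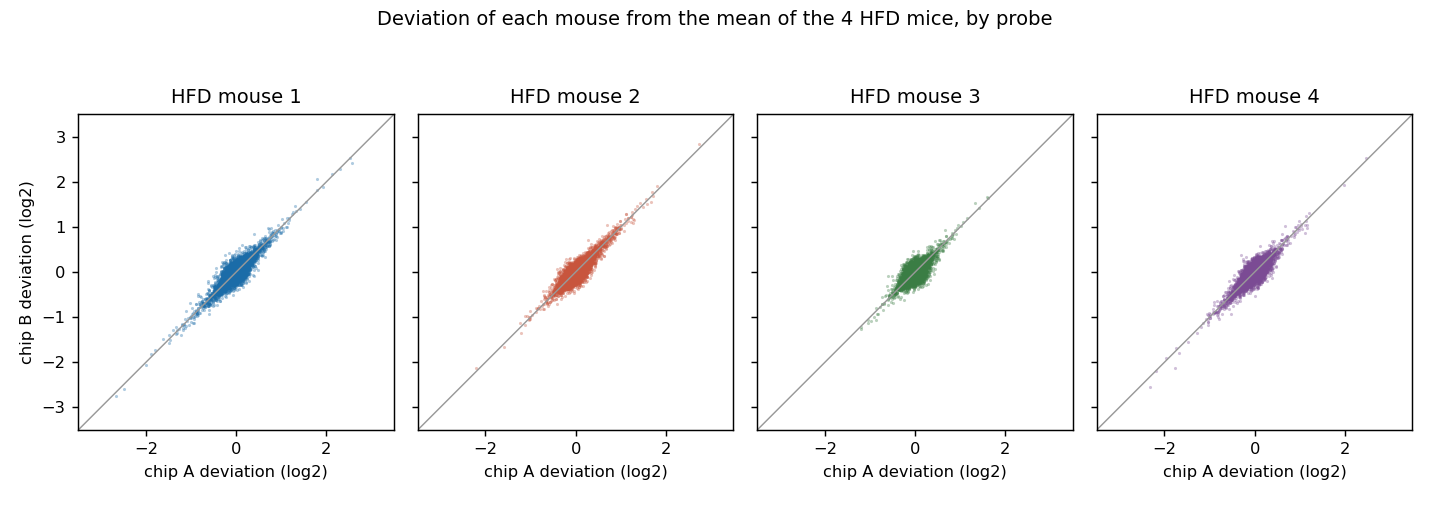
Deviation of each HFD mouse from the mean of the 4 HFD mice on chip A (horizontal axis, log2) and on chip B (vertical axis, log2), with 1 point per probe for 10550 probes and 1 panel per mouse. The grey line marks equal deviations, and the points farthest from 0, up to 2.85, lie along it.

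Most of the spread over the 8 arrays lay between mice. Of the summed squared deviations of all probes, 87.6% lay between mice, 5.51% between chips and 6.93% between the repeat arrays of a mouse. In limma's F test, which sets the differences among the 4 mice against the repeat-array error, 5668 of 10550 probes (53.7%) passed an adjusted p of 0.05, and 6462 had an unadjusted p under 0.05. Among genes 3577 of 6559 passed (54.5%). The p-values compare these RNA samples, not populations of mice. Most differences were small. The median range, the highest mouse minus the lowest, was 0.29 over all genes. A range over 1 in addition to the test was found for 475 probes (4.5%) and for 318 genes (4.85%). For 38 of the 318 genes the lowest mouse was undetected on both arrays, so its level is an upper limit, and with the detection limit in its place 19 of them kept a range over 1.

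Bright probes gave repeatable differences more often than dim ones. The median SD between mice, over the means of their 2 arrays, was 0.129, and the median SD between repeat arrays was 0.0695. In the dimmest quartile of probes the repeat SD was 0.103 and the SD between mice 0.117. In the brightest quartile the same values were 0.0468 and 0.130. The repeat error was thus the quantity that went down with signal. The share of probes that passed was 38.5% in the dimmest quartile, 53.1% and 61.6% in the middle ones and 61.7% in the brightest. The median intraclass correlation, the share of a probe's variance that lies between mice, went from 0.463 to 0.888 over these quartiles. It was above 0.9 for 3118 probes (29.6%) and below 0 for 1260 (11.9%).

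**Figure D2:**
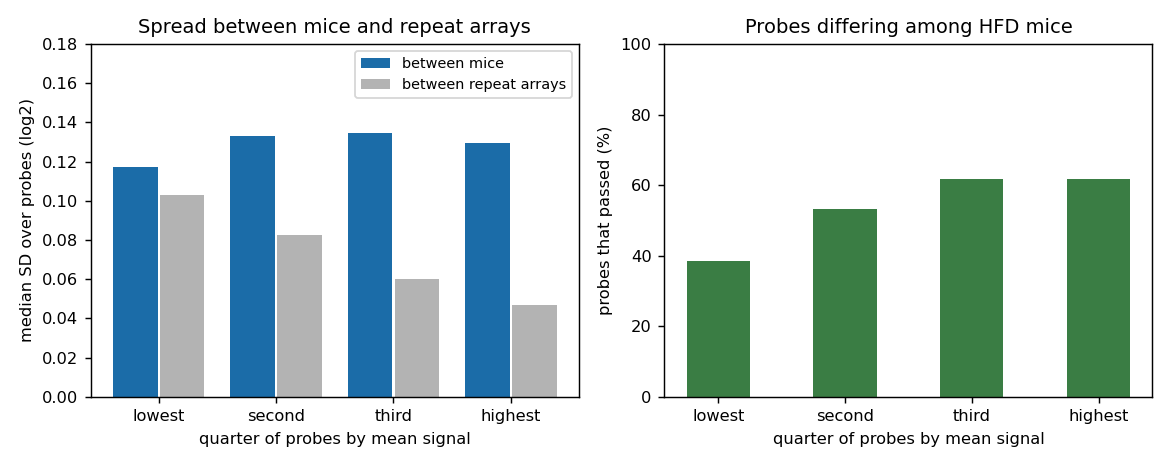
Left, the median standard deviation over probes (log2) between HFD mice and between repeat arrays of a mouse, in 4 quartiles of the probes by mean signal. Right, the percentage of probes in each quartile that differed among the HFD mice at an adjusted p under 0.05: the repeat SD goes from 0.103 to 0.0468 and the share that passed from 38.5% to 61.7%.

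All 4 mice contributed, mouse 3 the least. Against the mean of the other 3, mouse 1 was higher for 1200 (18.3%) genes and lower for 1214 (18.5%). Mouse 2 was higher for 1192 (18.2%) and lower for 1245 (19%), mouse 3 higher for 589 (8.98%) and lower for 580 (8.84%), and mouse 4 higher for 1073 (16.4%) and lower for 1112 (17%). Among the probes called for mice 1 to 4, 50%, 47.2%, 50.5% and 51.1% were higher, and these splits depended on the scaling: they were 31.4%, 74.2%, 58.2% and 35.7% on the deposited signal with no further normalization and 45.9%, 65.1%, 35.7% and 46.4% on the deposited z scores. Among the 318 genes with a range over 1, mouse 2 was the highest in 152, mouse 1 in 88, mouse 4 in 48 and mouse 3 in 30. Mouse 4 was the lowest in 131, mouse 1 in 103, mouse 2 in 57 and mouse 3 in 27. The commonest pair of ends, in 94 genes, had mouse 2 highest and mouse 4 lowest. Without mouse 1 or without mouse 2 the count of 318 became 184.

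Genes of fatty acid synthesis were low in mouse 1. All 14 measured members of the lipogenesis list passed, against 54.5% of all genes, and 7 had a range over 1, against 4.85%. The same 54.5% and 4.85% of all genes are the background of every list count below. The shares of all genes in which each mouse was higher or lower are given above. Mouse 1 was below the other mice in 12 and above in none. Thrsp, a nuclear protein that responds to thyroid hormone and carbohydrate and accompanies lipogenesis, read 6.69 and 6.69 in mouse 1, 9.81 and 9.87 in mouse 2, 10.37 and 10.47 in mouse 3 and 10.57 and 10.74 in mouse 4. No array of mouse 1 came near those of the other mice. Mouse 1 differed from the mean of the others by -3.61 (SE 0.05, limma adjusted p over the mice 3.32e-08), and the range was 15.6-fold. The chow arrays read 9.10 to 10.26, so mouse 1 stood below all of them as well.

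Elovl6, the elongase that takes palmitate to stearate, read 6.62 and 6.54 in mouse 1, 10.02 and 10.19 in mouse 2, 10.16 and 10.23 in mouse 3 and 9.63 and 9.55 in mouse 4. Mouse 1 differed from the others by -3.38 (SE 0.06), with a 12.3-fold range. Acly, ATP citrate lyase, which supplies acetyl-CoA to both fatty acid and cholesterol synthesis, read 9.36 and 9.41 in mouse 1, 12.04 and 12.12 in mouse 2, 12.06 and 11.98 in mouse 3 and 11.17 and 11.08 in mouse 4, a 6.47-fold range. In both genes mice 2 and 3 were close, mouse 4 lay a little lower and mouse 1 far below. Acaca, acetyl-CoA carboxylase, the committed step of fatty acid synthesis, had a range of 2.19. The desaturases were closer together: Scd1 ranged by 0.89 and Fads1 by 1.10, with mouse 1 the lowest in both. Dgat2, which closes triglyceride synthesis, ranged by 0.22 (adjusted p = 0.0431), and its lowest mouse was mouse 2. Without mouse 1, 9 of the 14 members passed and none kept a range over 1. The list mean, as a difference from the mean of the HFD arrays, was -0.95, 0.35, 0.38 and 0.22 in mice 1 to 4, -0.28 to 0.03 on the chow arrays and 0.11 to 0.82 on the NMN arrays.

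Cholesterol synthesis genes were low in the same mouse. Of 17 measured members 16 passed (94.1%, against 54.5% of all genes) and 13 had a range over 1 (76.5%, against 4.85%). The member that did not pass was Srebf2, the transcription factor of the pathway (adjusted p = 0.0649). Mouse 1 was lower than the others in 16 and higher in none, while mice 2 and 3 were each higher in 13 and lower in none. Over all genes mouse 1 was lower in 18.5%, mouse 2 higher in 18.2% and mouse 3 higher in 8.98%. Fdps, farnesyl diphosphate synthase, read 7.94 and 7.85 in mouse 1, 11.42 and 11.35 in mouse 2, 10.83 and 10.85 in mouse 3 and 9.54 and 9.59 in mouse 4. Mouse 1 differed from the others by -2.70 and mouse 2 by 1.95 (SE 0.05 for each), and the range was 11.2-fold (limma adjusted p = 6.17e-08). No pair of HFD mice overlapped. The chow arrays read 11.39 to 11.82.

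Cyp51 and Msmo1, of the later steps, kept the order of Fdps: mouse 2 above mouse 3, mouse 4 and mouse 1. Cyp51, lanosterol demethylase, read 5.88 and 5.68 in mouse 1, 7.53 and 7.49 in mouse 2, 7.10 and 7.05 in mouse 3 and 6.40 and 6.32 in mouse 4. Msmo1, a sterol methyl oxidase, read 7.17 and 7.15 in mouse 1, 8.72 and 8.70 in mouse 2, 8.52 and 8.45 in mouse 3 and 8.26 and 8.16 in mouse 4. All HFD arrays lay below the chow arrays for both genes, which read 8.85 to 9.33 and 10.16 to 10.77. Insig1, an endoplasmic reticulum protein that holds back SREBP when sterols are plentiful, read 6.25 and 6.18 in mouse 1, 7.76 and 7.70 in mouse 2, 8.36 and 8.36 in mouse 3 and 8.52 and 8.48 in mouse 4. Here mouse 4 was the highest, as it was for Sc5d, a desaturase late in the pathway, and Stard4, a sterol carrier, whereas mouse 2 was the highest for 11 of the 17 members. Sqle, squalene epoxidase, was undetected on both arrays of mice 1 and 4, and mouse 2 was at least 2.64-fold higher than mouse 1. Without mouse 1, 15 of the 17 passed and 3 kept a range over 1. The list mean was -0.82, 0.47, 0.37 and -0.03 in mice 1 to 4 and 1.17 or more on the chow arrays, above all HFD mice.

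Promoter sequence is shown for 3 of these genes because SREBP2 acts on sterol regulatory elements together with NF-Y, which binds CCAAT boxes. The windows are the 250 bases before the annotated start, read on the gene's strand from RefSeq's GRCm38.p6 annotation, in lower case with capitals on each match to TCACNCCAC (a sterol element) or CCAAT. Both strands were searched, so ATTGG marks a CCAAT on the other strand, and no matches overlap in the windows shown. A window was in the table for 14 of the 17 measured genes.
Hmgcs1, chr13:119690101-119690350, plus strand: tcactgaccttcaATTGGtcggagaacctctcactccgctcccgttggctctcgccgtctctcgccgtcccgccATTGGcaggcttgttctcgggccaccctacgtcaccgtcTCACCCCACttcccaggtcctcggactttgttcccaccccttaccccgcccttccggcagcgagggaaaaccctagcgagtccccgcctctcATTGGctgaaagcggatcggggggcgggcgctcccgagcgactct
Insig1, chr5:28071162-28071411, plus strand: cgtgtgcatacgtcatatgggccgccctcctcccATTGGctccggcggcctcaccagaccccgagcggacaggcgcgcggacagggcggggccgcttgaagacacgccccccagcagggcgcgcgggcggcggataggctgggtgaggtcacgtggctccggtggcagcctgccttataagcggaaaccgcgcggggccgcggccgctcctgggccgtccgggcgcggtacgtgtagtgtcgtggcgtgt
Msmo1, chr8:64733579-64733828, minus strand: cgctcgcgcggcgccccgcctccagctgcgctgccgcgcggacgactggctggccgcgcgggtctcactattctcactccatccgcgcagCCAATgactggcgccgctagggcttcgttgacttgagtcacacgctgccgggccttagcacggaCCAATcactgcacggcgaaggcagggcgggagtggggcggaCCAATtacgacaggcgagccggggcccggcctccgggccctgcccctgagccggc
Hmgcs1 encodes the synthase at the entry to the pathway, and it was the 1 gene of the list whose window held TCACNCCAC. This motif was found in 1.05% of 32851 windows of that length before annotated starts, with 1 chromosome left out. CCAAT was found in at least 1 window of all 14 genes and in 14 of their 17 windows (82.4%), against 33.8% of the 32851. A match is a run of letters, and binding was not measured here.

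Lipid droplet genes were high in the mouse in which synthesis was low. Of 15 measured members 14 passed and 6 had a range over 1. Mouse 1 was above the others in 12 and below in none. Plin4, a coat protein of lipid droplets, read 9.77 and 9.76 in mouse 1, 7.14 and 7.07 in mouse 2, 6.87 and 6.81 in mouse 3 and 6.81 and 6.69 in mouse 4. Mouse 1 lay 2.87 above the others (SE 0.05, adjusted p over the mice 6.49e-08), while the other 3 mice read 6.69 to 7.14. Chow arrays read 4.59 to 5.45, under every HFD array. Cidec, which fuses droplets, was undetected on both arrays of mice 2 and 3, and mouse 1 was at least 2.88-fold higher than mouse 2. Fitm2, which partitions fat into droplets, read 9.89 and 9.97 in mouse 1 and 8.86 to 9.17 elsewhere. Lpl, lipoprotein lipase, did not follow: it was highest in mouse 2 (10.09 and 10.09) and lowest in mouse 4 (8.99 and 8.92). Without mouse 1, 11 of the 15 passed and 2 kept a range over 1, and without mouse 2 the latter count was 4.

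Fatty acid oxidation set mice 1 and 2 apart in opposite directions. Of 15 measured genes of oxidation and PPAR alpha, 13 passed and 6 had a range over 1. Mouse 1 was higher in 12 and lower in none, and mouse 2 was lower in 14 and higher in none, by the test of a mouse against the other 3, which can pass where the F test does not. Acot1, a cytosolic acyl-CoA thioesterase and PPAR alpha target, read 9.02 and 9.03 in mouse 1, 6.75 and 6.59 in mouse 2, 8.01 and 7.95 in mouse 3 and 8.06 and 8.21 in mouse 4. Mouse 1 differed from the others by 1.43 and mouse 2 by -1.71 (SE 0.07 for each), a 5.12-fold range. Acadm, medium-chain acyl-CoA dehydrogenase, ran from 9.61 and 9.66 in mouse 2 to 10.88 and 10.87 in mouse 1. Cyp4a14 and Cyp4a31, microsomal hydroxylases of fatty acids, ranged by 1.46 and 2.29 with the same mice at the ends. Members of this P450 family are alike in sequence, so their probes may share signal. Without mouse 1, 9 members passed and 1 kept a range over 1, and without mouse 2 these counts were 10 and 2.

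Genes of fasting gave no single order. All 9 measured members passed and 3 had a range over 1. Fgf21, a hormone that the liver releases in fasting, read 7.88 and 7.94 in mouse 1, 7.25 and 7.21 in mouse 2, 6.65 and 6.65 in mouse 3 and 7.04 and 7.01 in mouse 4. Pdk4, the kinase that shuts pyruvate dehydrogenase, was also highest in mouse 1 (8.02 and 8.04) but lowest in mouse 4 (6.66 and 6.37). Cdkn1a, a cell cycle inhibitor, was highest in mouse 2 (7.84 and 7.93) and lowest in mouse 4 (6.55 and 6.69). Without mouse 1 or without mouse 4, 1 of the 3 kept a range over 1.

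**Figure D3:**
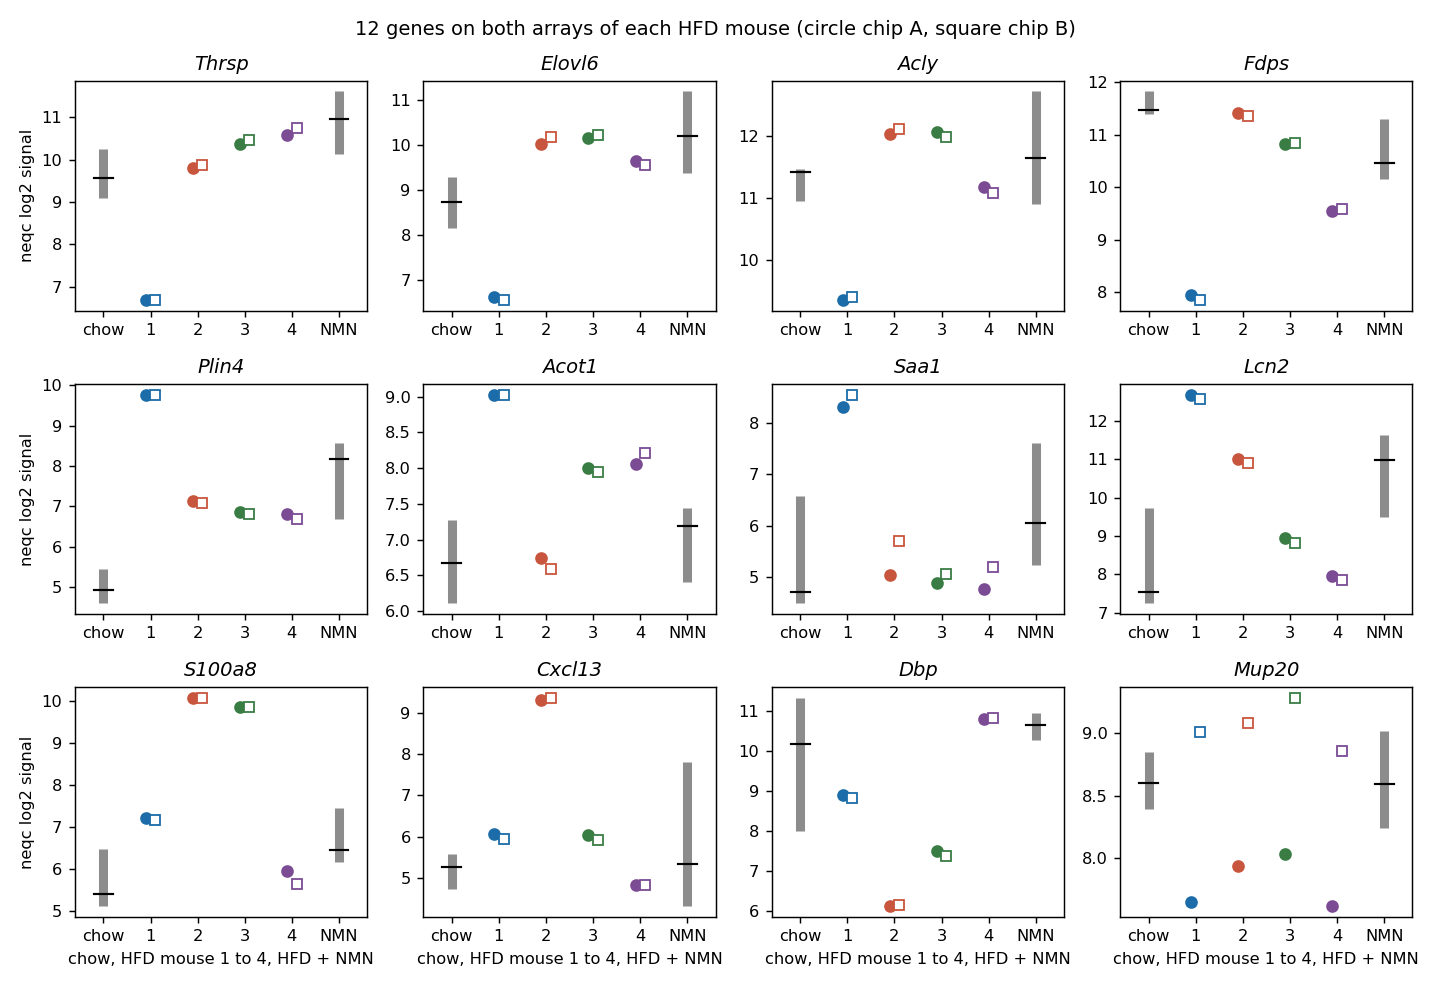
Neqc log2 signal (vertical axes) of 12 genes in each HFD mouse, circles for chip A and open squares for chip B, with the range (grey bar) and median (black line) of the 4 chow and the 4 NMN arrays. For most genes the repeat arrays lie nearly on top of each other, the squares of Saa1 lie above its circles in all 4 mice, and for Mup20 chip B is higher in every mouse, by 1.25 on average.

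Acute phase proteins, which hepatocytes secrete when cytokines reach them, were highest in mouse 1 and low in mice 3 and 4. Of 18 measured members 16 passed and 9 had a range over 1. Mouse 1 was higher in 16 and lower in none, mouse 3 lower in 13 and mouse 4 lower in 14, both higher in none. Saa1, serum amyloid A, read 8.32 and 8.56 in mouse 1, 5.04 and 5.71 in mouse 2, 4.89 and 5.06 in mouse 3 and 4.76 and 5.19 in mouse 4. Mouse 1 lay 3.33 above the others (SE 0.09), with a 11.1-fold range (adjusted p = 5.67e-07), while the arrays of mice 2, 3 and 4 overlapped. Saa1 and Saa2 are close copies, so their probes may share signal. Orm2, orosomucoid, an abundant carrier protein of plasma, read 11.54 and 11.46 in mouse 1, 10.35 and 10.31 in mouse 2, 9.26 and 9.20 in mouse 3 and 8.80 and 8.69 in mouse 4, with no overlap between mice. Fgg, fibrinogen gamma, was close in all mice, with a range of 0.20 (adjusted p = 0.277). Without mouse 1, 13 members passed and 3 kept a range over 1, and without mouse 4 the latter count was 6.

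Lcn2, lipocalin 2, had the largest range of the 6559 genes. It captures bacterial iron carriers and is made by neutrophils and, in the acute phase, by hepatocytes. It read 12.68 and 12.57 in mouse 1, 11.02 and 10.91 in mouse 2, 8.94 and 8.81 in mouse 3 and 7.96 and 7.84 in mouse 4, a 26.5-fold range (adjusted p = 1.6e-08), against 7.25 to 9.74 in chow. Mt1, a metallothionein that binds zinc, had the same order, with 13.75 and 13.73 in mouse 1, 13.19 and 13.01 in mouse 2, 12.24 and 12.23 in mouse 3 and 11.35 and 11.18 in mouse 4. Cxcl1, a neutrophil chemokine, read 9.44 and 9.39 in mouse 1, 8.37 and 8.40 in mouse 2, 7.16 and 7.04 in mouse 3 and 7.10 and 7.09 in mouse 4, so mice 3 and 4 overlapped. The glucocorticoid list, which holds Mt1 and Lcn2 too, had all 10 measured members past the threshold and 4 with a range over 1, namely Mt1, Mt2, Lcn2 and Gadd45a. The last, a growth arrest gene, was highest in mouse 4 instead.

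Neutrophil granule genes were high in mice 2 and 3. All 11 measured members of 17 listed passed and 9 had a range over 1, a count of 8 or 9 with any 1 mouse left out. S100a8, a subunit of calprotectin, read 7.21 and 7.16 in mouse 1, 10.07 and 10.08 in mouse 2, 9.86 and 9.85 in mouse 3 and 5.95 and 5.64 in mouse 4, a 19.5-fold range (adjusted p = 6.17e-08). Mice 2 and 3 stood above all chow (5.10 to 6.47) and NMN arrays (6.17 to 7.44). Ltf, lactoferrin, read 5.04 and 5.05 in mouse 1, 8.03 and 7.91 in mouse 2, 7.98 and 7.98 in mouse 3 and 4.39 and 4.44 in mouse 4. Mouse 4 was undetected, so mouse 3 was at least 9.25-fold higher. Mpo, myeloperoxidase of the primary granules, read 6.38 and 6.44 in mouse 2 and 6.04 and 6.05 in mouse 3 and was undetected on both arrays of mice 1 and 4, as were Elane, Ngp, Camp and Retnlg. The 4 arrays of mice 2 and 3 are enough for a gene to meet the detection filter. For genes undetected in mice 1 and 4, a difference among the mice is thus in part set by the filter, and their passing is no separate evidence.

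Of the 11 genes 7 were undetected in at least 1 mouse, and with these at their detection limit the median range of the list was 1.64 instead of 2.17. The list mean was -0.38, 0.93, 0.67 and -1.22 in mice 1 to 4, -1.34 to -1.01 in chow and -0.96 to -0.35 with NMN. In a bulk liver sample, more cells of a type and more RNA per cell cannot be told apart. Lcn2 and Wfdc21, another acute phase gene of the list, were highest in mouse 1, unlike the granule genes. Prtn3, proteinase 3, a granule protease outside the list, read 6.74 and 6.59 in mouse 1, 8.03 and 7.85 in mouse 2, 5.88 and 5.85 in mouse 3 and 4.64 and 4.37 in mouse 4, with mouse 4 undetected, so mouse 1 stood above mouse 3.

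Macrophage genes were highest in mouse 2. Of 12 measured macrophage and Kupffer cell markers 11 passed and 7 had a range over 1. Mouse 2 was higher than the others in 11, and mice 1 and 4 were each lower in 10. Fcgr4, an Fc receptor, read 11.87 and 11.88 in mouse 2 and 9.57 to 9.68 in mice 1 and 4, with mouse 3 between them, a 4.78-fold range. Adgre1, which encodes the macrophage antigen F4/80, read 8.05 and 8.04 in mouse 2 and 5.95 to 7.05 elsewhere. Clec4f and Vsig4, markers of resident Kupffer cells, were instead highest in mouse 3, with ranges of 0.99 and 0.91. Marco, a scavenger receptor also found on Kupffer cells, was highest in mouse 2, at least 3.08-fold above mouse 3, where it was undetected. Without mouse 2, 3 of the 7 kept a range over 1. The list mean was -0.39, 0.65, 0.21 and -0.47 in mice 1 to 4, -1.26 to -0.64 in chow and -0.69 to 0.60 with NMN.

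Cytokine and chemokine genes set mouse 2 against mouse 4. Of 17 measured inflammation genes 16 passed and 8 had a range over 1. Mouse 2 was higher in 13 and lower in none, and mouse 4 lower in 14 and higher in none. Cxcl13, a chemokine that attracts B cells, read 6.07 and 5.94 in mouse 1, 9.30 and 9.36 in mouse 2, 6.05 and 5.93 in mouse 3 and 4.83 and 4.83 in mouse 4. Mouse 2 lay 3.72 above the others (SE 0.06), and the range was 22.6-fold. B cell and MHC class II markers had fewer large ranges: all 7 measured members passed and 1 had a range over 1, namely Cd79b of the B cell receptor (5.90 and 5.72 in mouse 2 and 4.77 and 4.77 in mouse 4). Il1b, interleukin-1 beta, and Ccl4, a chemokine of activated macrophages, ranged by 2.12 and 2.21 with mouse 2 highest and mouse 4 lowest. Without mouse 2 or without mouse 4, 5 of the 8 kept a range over 1. Over mice 1 to 4 this list's mean was 0.08, 0.54, -0.07 and -0.55, and the part that macrophage and neutrophil genes have in it was not tested.

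Markers of other cell types were read in the same way. In the endothelial list 7 of 12 passed (58.3%), near the 54.5% of all genes, and none had a range over 1. Pecam1, an adhesion molecule of vessel walls, read 6.83 and 6.76 in mouse 2 and 6.03 to 6.44 elsewhere. In the stellate and fibroblast list 9 of 10 passed, and Timp1, an inhibitor of matrix proteases, had the single range over 1, which against the detection limit was at least 0.61. It read 5.39 and 5.34 in mouse 1 and 5.07 and 5.07 in mouse 2, and was undetected in mice 3 and 4. Of 14 T and NK cell markers 4 were measured and 2 passed (50%), also near the share of all genes. Of 10 cholangiocyte markers 2 were measured and none passed, with adjusted p of 0.238 for Muc1 and 0.291 for Cldn7. Of 11 pancreatic acinar markers 3 were measured and passed, none with a range over 1, and of 8 adipocyte markers the 2 measured ones, Car3 and Cidec, passed, the latter with the large range given above. No skeletal muscle marker was measured.

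Blood cell genes had their own orders. The erythroid and platelet list had 4 measured members, all of which passed. Slc4a1, the anion exchanger of red cells, read 5.80 and 5.78 in mouse 1, 7.07 and 7.17 in mouse 2, 7.84 and 7.87 in mouse 3 and 6.07 and 5.88 in mouse 4. Hba-a1, a haemoglobin chain, was instead highest in mouse 4 (13.69 and 13.73 against 13.11 to 13.31). Ppbp, a platelet chemokine, was undetected in mouse 4 and at least 4.08-fold higher in mouse 2. Of 7 proliferation genes 6 passed, none with a range over 1, and mouse 2 was higher in 6. However, 4 of the 7 were undetected in at least 1 mouse. With these at their detection limit the median range of the list was 0.35 instead of 0.67.

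**Figure D4:**
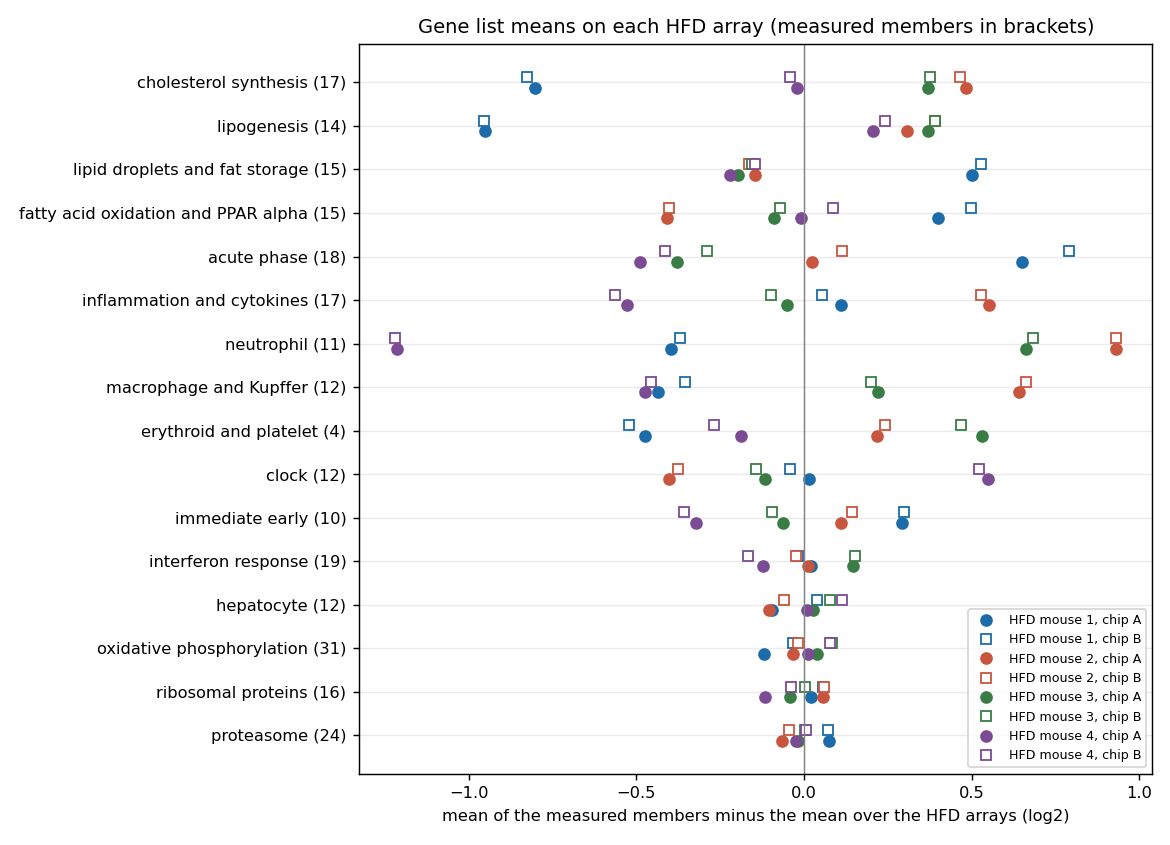
Mean of the measured members of 16 gene lists on each HFD array, minus the mean over the 8 HFD arrays (horizontal axis, log2), with circles for chip A and open squares for chip B. Neutrophil genes span from -1.22 in mouse 4 to 0.93 in mouse 2, lipogenesis sets mouse 1 apart at -0.95, and the hepatocyte, oxidative phosphorylation, ribosomal and proteasome lists stay near 0.

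Clock genes put mouse 4 at one end and mouse 2 at the other. Of 12 measured members 11 passed, the exception being Rora (adjusted p = 0.108), and 4 had a range over 1. Mouse 4 was higher in 9 and lower in 2, and mouse 2 lower in 9 and higher in 2. Dbp, a transcription factor that CLOCK and BMAL1 drive in a steep daily wave, read 8.89 and 8.82 in mouse 1, 6.12 and 6.16 in mouse 2, 7.49 and 7.37 in mouse 3 and 10.79 and 10.82 in mouse 4. Mouse 4 differed from the others by 3.33 and mouse 2 by -2.89 (SE 0.05 for each), and the 25.4-fold range came next to that of Lcn2. No mice overlapped. The lowest chow array read 8.01 and the highest lay above every HFD array, while the NMN arrays read 10.27 to 10.96.

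Tef, a factor related to Dbp, read 8.31 and 8.17 in mouse 1, 6.65 and 6.81 in mouse 2, 7.29 and 7.39 in mouse 3 and 8.65 and 8.78 in mouse 4, with mouse 4 highest and mouse 2 lowest as for Dbp. Noct, a rhythmic phosphatase of NADP(H), read 7.89 and 7.87 in mouse 4 and 6.01 to 6.58 elsewhere. Nr1d1, the nuclear receptor REV-ERB alpha that represses Arntl, was highest in mouse 4 (6.64 and 6.44) and lowest in mouse 2 (5.38 and 5.52). Arntl, which encodes BMAL1, ran the other way: it was undetected in mouse 4 and read 5.65 and 5.48 in mouse 2, at least 1.73-fold higher. Nfil3, a repressor that competes with Dbp, was also lowest in mouse 4 (9.10 and 9.06) and highest in mouse 2 (9.62 and 9.67). Per3 was detected in mouse 4 alone, at 4.95 and 5.03. Per1, Cry2, Ciart and Bhlhe40 ranged by 0.64, 0.64, 0.78 and 0.56. Without mouse 4, 9 members passed and 2 kept a range over 1. As the hours of collection are not known here, a difference in hour and a difference in the clock of the mice cannot be told apart.

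The E-box CACGTG, which CLOCK and BMAL1 bind and which reads the same on both strands, was looked for in windows of the same length. It was found in 3 of the 11 measured clock genes with a window and in 4 of their 14 windows (28.6%). The share was 6.02% of the 32851 windows before annotated starts described above. The window of the second start of Tef is shown because Tef, of the 4 genes with a range over 1, is the one with a match, which stands in capitals.
Tef, chr15:81811164-81811413, plus strand: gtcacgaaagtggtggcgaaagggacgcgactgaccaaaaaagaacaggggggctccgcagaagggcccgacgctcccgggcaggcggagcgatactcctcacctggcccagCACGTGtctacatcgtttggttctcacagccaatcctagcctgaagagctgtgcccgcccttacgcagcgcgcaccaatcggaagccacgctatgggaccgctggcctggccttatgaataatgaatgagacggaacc
The window of Dbp held no match, which says only that these letters are not in these 250 bases.

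Bile acid and sterol transport genes held 5 members with a large range. Of 17 measured members 12 passed (70.6%) and 5 had a range over 1: Cyp7a1, Cyp8b1, Abcc3, Abcg5 and Abcg8. Cyp7a1, the rate-limiting enzyme of bile acid synthesis, read 10.63 and 10.54 in mouse 1, 11.71 and 11.72 in mouse 2, 10.31 and 10.26 in mouse 3 and 9.82 and 9.68 in mouse 4, a 3.91-fold range. Cyp8b1, the hydroxylase that sets the kind of bile acid made, paired the mice otherwise, with 12.41 and 12.36 in mouse 1, 12.25 and 12.15 in mouse 2, 11.15 and 11.14 in mouse 3 and 11.15 and 11.11 in mouse 4. Mice 1 and 2 were high and mice 3 and 4 low, with no overlap between the pairs. Abcg5 and Abcg8, the partners of the canalicular sterol transporter, had the same highest and lowest mouse. Abcg8 read 12.15 and 12.12 in mouse 4 and 10.49 to 11.27 elsewhere, and Abcg5 read 12.41 and 12.30 in mouse 4 and 10.96 to 11.58 elsewhere. The bile acid importer Slc10a1 and the conjugating enzyme Slc27a5 did not pass (adjusted p = 0.202 and 0.607). Without mouse 4, 3 of the 5 kept a range over 1.

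In the detoxification list mouse 4 was higher in 12 of 21 measured P450 and transferase genes and lower in 1, where over all genes it was higher in 16.4% and lower in 17%. Of the 21, 17 passed (81%, against 54.5% of all genes) and 5 had a range over 1. Cyp2b10, the P450 induced through the receptor CAR, read 5.96 and 5.85 in mouse 1, 6.66 and 6.81 in mouse 2, 7.14 and 7.19 in mouse 3 and 7.56 and 7.48 in mouse 4. Gsta4, a glutathione transferase that clears products of lipid peroxidation, read 7.66 and 7.63 in mouse 1, 8.11 and 7.97 in mouse 2, 8.57 and 8.65 in mouse 3 and 8.92 and 9.03 in mouse 4. For both genes the mice stood in the order 4, 3, 2, 1 without overlap. Without mouse 4, 1 member kept a range over 1, and without mouse 1 there were 2.

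Genes governed by growth hormone and by sex were counted in 3 lists. Of the 9 genes of growth hormone and STAT5 signalling 7 passed. Cish, a feedback inhibitor of cytokine receptors, read 6.33 and 6.27 in mouse 4 and 7.08 to 7.36 elsewhere, and Serpina12 alone had a range over 1. All 6 measured female-biased genes passed, 3 of them with a range over 1, and without mouse 2 this was 1. A1bg, alpha-1-B glycoprotein, read 8.51 and 8.34 in mouse 1, 9.26 and 9.28 in mouse 2, 9.59 and 9.57 in mouse 3 and 7.77 and 7.85 in mouse 4, all below the chow arrays (9.87 to 12.77). Of 7 male-biased genes 6 passed, and Cyp2d9, a P450, alone had a range over 1, with 8.20 and 8.17 in mouse 2 and 8.80 to 9.30 elsewhere. Xist, the RNA of the inactive X chromosome, was detected on all 8 HFD arrays, as the female label has it.

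Single genes of iron metabolism set mouse 1 apart, though their list did not. In the metallothionein, iron and heme list 9 of 11 passed and 3 had a range over 1, and mouse 1 was higher in 4 and lower in 3. Hamp2, a copy of the iron hormone hepcidin, read 13.11 to 13.48 in mice 2, 3 and 4, and mouse 1 differed from them by -1.93 (SE 0.05). Hamp, hepcidin itself, was highest in that mouse and ranged by 0.78. Id1, a target of BMP signalling, was also highest in mouse 1, at 7.06 and 7.03 against 5.68 to 6.06 elsewhere. Without mouse 1, 1 member kept a range over 1, and without mouse 2 or mouse 4 there were 2. Of 13 endoplasmic reticulum chaperone and stress genes 10 passed and none had a range over 1, and mouse 1 was higher in 9 and lower in none. Without mouse 1, 4 of the 13 passed. Of 9 heat shock genes 7 passed, none with a range over 1, and mice 1 and 4 were each higher in 5.

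All 10 measured immediate early genes passed and 2 had a range over 1, 1 without mouse 1 or without mouse 4. Over the list mouse 1 was higher in 8 and lower in 1, mouse 2 higher in 3 and lower in 1, and mouse 4 lower in 7. The list mean was 0.29, 0.13, -0.08 and -0.34 in mice 1 to 4. Egr1, a transcription factor that responds within minutes to handling and other stimuli, read 9.21 and 9.25 in mouse 2, 8.20 and 8.21 in mouse 3 and 7.44 and 7.29 in mouse 4, with mouse 1 a little below mouse 2. The order in which the mice were killed is not known here. Of 19 interferon-response genes 15 passed (78.9%, against 54.5% of all genes) and none had a range over 1.

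Some of the most variable genes belonged to no list. Krt23, a keratin, read 6.78 and 6.91 in mouse 1, 5.23 and 5.10 in mouse 2, 6.46 and 6.38 in mouse 3 and 8.79 and 8.69 in mouse 4. Ly6d, a GPI-anchored surface protein, read 9.21 and 9.23 in mouse 1, 7.29 and 7.29 in mouse 2, 6.23 and 6.21 in mouse 3 and 6.38 and 6.61 in mouse 4, against 4.30 to 4.67 in chow. Gpc1, the heparan sulfate proteoglycan glypican 1, read 10.07 and 10.08 in mouse 1, 8.14 and 8.15 in mouse 2, 8.59 and 8.67 in mouse 3 and 9.87 and 9.90 in mouse 4. The highest mouse was thus mouse 4 for Krt23 and mouse 1 for Ly6d and Gpc1. Asb2, a subunit of a ubiquitin ligase, and Fpr2, a formyl peptide receptor of phagocytes, were highest in mouse 2, with ranges of 2.74 and 2.68. Cyp26a1, which degrades retinoic acid, was at least 4.7-fold higher in mouse 4 than in mouse 1. Anxa4, an annexin, was low in mouse 2 (4.95 and 4.91 against 6.13 to 6.53), and Emp1, a membrane protein, in mouse 3 (5.26 and 5.17 against 6.20 to 7.18).

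Genes of the machinery shared by all cells had no range over 1. In the proteasome list 6 of 24 passed (25%), in oxidative phosphorylation 15 of 31 (48.4%), in ribosomal proteins 9 of 16 (56.2%) and in housekeeping genes 4 of 7 (57.1%), against 54.5% of all genes. The median ranges were 0.18, 0.23, 0.27 and 0.33, against 0.29 over all genes. These counts rested in part on single mice: without mouse 1, 3 proteasome, 4 oxidative phosphorylation and 1 housekeeping genes passed, and without mouse 2, 2 proteasome, 9 oxidative phosphorylation and 3 ribosomal protein genes, the last of which were 5 without mouse 4. Actb, beta-actin, read 12.50 and 12.42 in mouse 2 and 11.91 and 11.75 in mouse 4, and Gapdh, a glycolytic enzyme, read 10.78 and 10.86 in mouse 1 and 11.17 to 11.35 elsewhere. B2m, beta-2-microglobulin, ranged by 0.10 (adjusted p = 0.526). In the periportal list all 10 members passed with a median range of 0.56, and mouse 2 was lower in 8. In the pericentral list 9 of 12 passed, and mouse 4 was lower in 7.

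Where a gene had more than 1 detected probe, the probes did not always give the same order. Of 77 such genes 23 had all probes past the threshold, and in 14 of these the probes named the same highest and lowest mouse.

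Chip B was compared with chip A within the 4 mice, which asks what changed between the 2 arrays of a mouse. At the threshold 19 of 10550 probes (0.18%) were higher on chip B and 0 (0%) lower, while at an unadjusted p under 0.05 limma had 881 higher and 713 lower. The 19 probes included 10 genes by their brightest probe (0.152%). This count depended strongly on the processing: it was 496 with each chip normalized on its own, 250 with quantile normalization and 1003 on the deposited signal. Mup20, a major urinary protein secreted by the liver, differed most. It read 7.65, 7.94, 8.03 and 7.62 in mice 1 to 4 on chip A and 9.01, 9.08, 9.28 and 8.86 on chip B. The difference was 1.25 (SE 0.05, limma adjusted p = 4.86e-05), in the same direction in 4 of 4 mice. Major urinary proteins are near copies of each other, so the probe may read several.

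H2-Q10, a class I molecule secreted by the liver, was higher on chip B by 0.82 (SE 0.06), and Alb, serum albumin, by 0.61 (SE 0.05). The probe of H2-Q10 was dim on chip A, at 4.42 to 4.91, and was detected on 7 of the 8 HFD arrays. A dim probe of H2-K1 was higher by 0.81, but the brightest probe of H2-K1 did not pass (0.04, limma adjusted p = 0.858). The probe of Alb was dim as well, at 5.39 to 5.75 on chip A and 5.91 to 6.34 on chip B. Serpinc1, antithrombin, was higher by 0.60 and Ptma, prothymosin alpha, by 0.60. Atp5a1, a subunit of ATP synthase, Rgn, regucalcin, and Bcap31, a sorting protein of the endoplasmic reticulum, were higher by 0.55, 0.53 and 0.52. The probe of Rgn was detected on 4 of the 8 HFD arrays and read 4.245 to 4.521 on chip A, so the size of its difference is uncertain. For Atp5a1, Rgn and Bcap31 the mice themselves did not differ at the threshold (adjusted p = 0.137, 0.219 and 0.364).

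Chow was measured on chip A alone and NMN on chip B alone, so a comparison of chow with NMN arrays also compares the chips. Chow can be compared with the HFD arrays of chip A, and NMN with those of chip B, on the same chip. The HFD pairs give the difference between the chips. On chip A the HFD arrays of Mup20 read 7.62 to 8.03, below all 4 chow arrays (8.40 to 8.85). The same mice read 8.86 to 9.28 on chip B, above all chow arrays, but this sets arrays of different chips against each other. For H2-Q10 the chow arrays (4.59 to 4.81) overlapped with the HFD arrays of chip A (4.42 to 4.91), and the NMN arrays (5.37 to 5.58) with the HFD arrays of chip B (5.18 to 5.92). Most probes differed less: the median size of the chip difference over all probes was 0.0531.

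**Figure D5:**
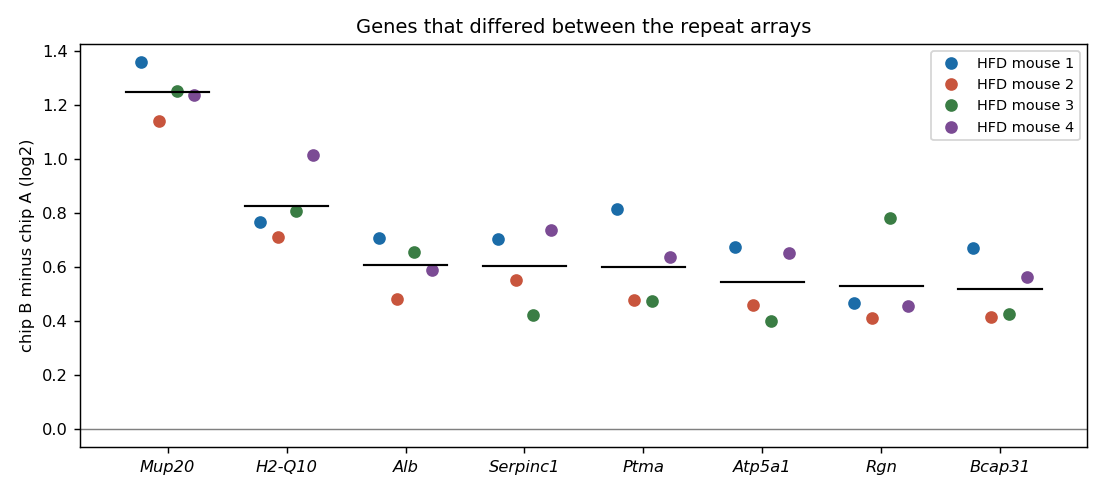
Difference of chip B minus chip A (vertical axis, log2) in each of the 4 HFD mice for the 8 genes with the largest differences that passed, with a black line at the mean. All points lie above 0, and Mup20 stands highest with a mean of 1.25.

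The other groups, with 1 array a mouse, hold the spread of mice and of arrays together. Over all probes the median SD was 0.137 in chow, 0.141 and 0.145 in HFD on chips A and B, and 0.136 with NMN. For the 318 genes with a range over 1 among HFD mice, the median SD was 0.27 in chow and 0.41 with NMN, and an SD over 0.5 was found for 14.8% of them in chow and 39.9% with NMN. For the 2982 genes that did not pass, these shares were 0.201% and 0.168%. Spread was thus larger for the 318 genes in mice that did not enter their choice. Clock genes had a median SD of 0.46 in chow and 0.24 with NMN, and macrophage genes of 0.32 and 0.62. The spread of the groups was not compared by a test.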

How the data were processed

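Liver RNA of 4 HFD mice was measured on 2 Illumina bead arrays each, among 16 arrays of 25697 probes, of which 16850 carried 1 gene symbol in the platform annotation, updated through RefSeq's gene numbers. The deposited signal intensities had been scaled by the authors to an equal mean on every array, with no background subtracted, as the values show. Each deposited detection p-value compares a probe with the negative controls of its array. The deposited value table holds z scores, which the authors made within each array by centring it on 0 and scaling it to unit SD. Software and its settings were named in no label or header used here.

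Signals were background-corrected and quantile-normalized over the 16 arrays with neqc (limma 3.58.1, R 4.3.3, offset 16), and probes with a detection p under 0.01 on at least 4 arrays were kept. A limma fit with mouse and chip as terms over the 8 HFD arrays gave the F test over the mice, each mouse against the mean of the other 3, and chip B minus chip A, with Benjamini-Hochberg adjustment over 10550 probes at 0.05. All adjusted p-values in the report are limma's. The error is that between repeat arrays, so p-values compare these RNA samples, and the spread they rest on may be technical. Numbers pair the arrays through the animal numbers in the table's header, and all pairs had a correlation of at least 0.734. The fit was tested on simulated data.

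A gene was read from its brightest detected probe. An undetected lowest mouse was set to the detection limit of its arrays, which gives folds written as at least. The members and lists were chosen with earlier results of these data known. Genes were named as the 25 with the largest range, the 5 highest and 5 lowest of each mouse, the 8 largest chip differences, up to 4 members of a list by smallest p, and all clock genes. Srebf2, Sc5d, Stard4, Sqle, Marco, Hmgcs1, Scd1, Fads1, Dgat2, Fgg, Wfdc21, Camp, Ngp, Elane, Retnlg, Clec4f, Vsig4, Slc10a1, Slc27a5, Abcc3, Hamp, B2m, Muc1, Cldn7, Car3, H2-K1 and Xist were named after their values were seen. Alternatives were other normalizations, the deposited signal and z scores, other filters, no moderation, a robust spread, no block and 1 mouse left out. The count of genes with a range over 1 and the list counts without a mouse were added to these after the data were seen.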

Additional observations from a re-analysis of the deposited data

Results flagged for a closer look

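In 10 of 149 named genes and 4 of 34 list means, 1 of the 4 HFD mice stood far from the other 3, by the gap to its neighbour as a share of the whole range (above Dixon's critical value for 4 samples). Chance passes this value in about 1 of 20 groups, a rate that does not apply to these genes, since part of them were chosen for a mouse set apart or a large range. Mouse 1 was that mouse in 8 of the 10 genes. It was low for Elovl6 (share 0.832), Hamp2 (0.848) and Ass1 (0.855), an enzyme of the urea cycle that read 11.71 and 11.73 there and 12.34 to 12.54 in the others. It was low as well for Cox5a (0.869) and Atp5b (0.908), subunits of cytochrome oxidase and ATP synthase, at 11.11 and 11.03 against 11.37 to 11.50 and 13.45 and 13.42 against 13.69 to 13.75. Nudt7 (0.845), a peroxisomal hydrolase of coenzyme A, was undetected in mouse 1 and read 5.23 to 5.48 in the others, and with the detection limit in its place the share was 0.809, under the critical value. Mouse 1 was high for Saa1 (0.886) and Plin4 (0.882).

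Mouse 2 stood apart in Anxa4, where it was low (0.83), and mouse 4 in Per3, where it was high (0.916), a share that rests on 3 undetected mice and was 0.632 with them at the detection limit. Among the list means, mouse 1 was low for lipogenesis (0.883) and high for lipid droplets (0.957) and endoplasmic reticulum chaperones (0.935). Mouse 4 was low for growth hormone and STAT5 genes (0.885), with list means of 0.05, 0.05, 0.08 and -0.19 in mice 1 to 4.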

How the results depend on the processing

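Calls are counts of probes at an adjusted p of 0.05. The 5668 probes that differed among the mice became 2531 with limma without moderation, 4706 to 6413 under 9 other settings and 4008 to 5446 with 1 mouse left out. The z scores covered 7081 probes, the filter on all 8 HFD arrays 8791 and no filter 25697, against 10550 otherwise. Counts under those filters and on z scores therefore have other bases, here and in the chip comparison below. Without moderation the probes setting 1 mouse apart were 2219 for mouse 1, 2049 for mouse 2, 501 for mouse 3 and 1652 for mouse 4. Leaving out 1 mouse gave 613 (without mouse 1) to 2433 for mouse 3, from 1791, and 2303 (without mouse 2) to 3810 for mouse 4, from 3455. The 318 genes with a range over 1 became 211 with quantile normalization, and 184 (without mouse 1 or mouse 2) to 301 with 1 mouse left out. The chip comparison, with 19 probes, depended most on the processing. It gave 496 with neqc for each chip, 250 with quantile normalization, 1003 on the deposited signal, 84 over probes detected on all 8 HFD arrays, 6 with no filter, 359 with a robust spread and trend, 151 on z scores and 7 (without mouse 4), 10 (without mouse 1) or up to 39 (without mouse 2) with 1 mouse left out. Without moderation it gave 0, with 1201 at an unadjusted p under 0.05. With no replicate block, so that the pairing of the mice was not used, it gave 3. The causes were not tested. Of 1765 refits of the 149 named genes 30 lost the threshold and 4 gained it, and of 110 of the 8 chip genes 30 lost it. In none was the direction turned, but only refits that changed the values or the mean could turn it. For the named genes, the other filters, other moderation, no chip term and a mouse left out could not. For the chip genes, the other filters, other moderation and no block could not. The split of each mouse's calls into higher and lower did turn with the scaling, as given beside it in the report. With 3 residual degrees of freedom per probe, the error of a single probe rests on its moderation, and dim probes had the larger repeat error.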
